A study of Rattus norvegicus with 34 samples.

Results

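Matrix proteases, their inhibitors and the lysyl oxidases were followed here as 9 genes, chosen by name: the matrix metalloproteinases Mmp2 and Mmp14, the protease Adamts1, the tissue inhibitors of metalloproteinases Timp1, Timp2 and Timp3, and the lysyl oxidases Lox, Loxl1 and Loxl2. All 9 were measured, each by 1 probe, among 21895 features on the array, and all 9 entered every test because no filter on low values was used. The platform annotation named 7 of the probes, and the deposited description named those of Lox and Loxl1. Matrix metalloproteinases and ADAMTS proteases cut collagens, proteoglycans and other proteins outside the cell, and TIMP proteins bind and block them. Lysyl oxidases work in the opposite direction, since they cross-link collagen and elastin into stable fibres. In the brain, collagen-rich matrix lies mainly in the meninges and around vessels, and much of the matrix between neurons is made of proteoglycans and hyaluronan.

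RNA came from cortical neurons of rat embryos, labelled Wistar in one field and Hooded Wistar in the growth protocol, with an embryonic age of 15 to 16 or 17 days depending on the field, and was collected at day 21 of culture. Bundles of axons were either cut with a knife or stretched by oxygen puffs, and the labels do not say which injury is called mild and which severe. The controls comprised 6 arrays. Mild injury was followed at 0, 8, 15, 24 and 48 h and severe injury at 8, 15, 24 and 48 h with 3 arrays per time, and severe 0 h had 1 array. At least 12 wells were pooled for a time point and 3 cultures were used, but no label ties a replicate number to a culture, so a p-value reflects the variation among arrays, which may be technical. Every group, the controls included, was grown in the same B-27 medium.

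Each value is a linear ratio made by the authors, a probe's level on an array over its mean on 3 reference arrays. The 6 control arrays and the mild 0 to 24 h arrays were divided by control 1 to 3, and the mild 48 h arrays and all 13 severe arrays by mild 48 h. Levels in these sets of 18 and 16 arrays therefore cannot be set against each other. A ratio carries no signal level, and the columns of a deposited signal table, whose names match no sample's labels, were not used for levels, so how far a gene lay above background is not given here and levels of different genes are not compared. The labels of 18 arrays are in doubt, because the deposited tables list them in different orders; group names follow the labels. If the second order were right, mild 48 h would really be control 4 to 6, control 4 to 6 would be mild 0 h, and each earlier mild group would belong to the next later time. Each severe comparison below would then be a comparison with controls, with its log2 differences unchanged. In that order each set would be divided by controls, all mild arrays by control 1 to 3 and all severe arrays by control 4 to 6. As labelled, the severe arrays are divided by mild 48 h. Which order is right was not tested. Chip numbers follow the labels too, so values within a chip or with the chip as a block rest on the labels as given. Severe 48 h replicate 2 stood apart from the other severe arrays: the median log2 ratio of 81 proteasome and oxidative phosphorylation genes was -0.63 on it and between 0.01 and 0.31 on the others.

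Promoters are shown for 3 of the 9 genes, Adamts1 and Loxl1, which were both lower in severe arrays than at mild 48 h, and Timp1, whose level moved the other way. The RefSeq promoter table held 5 of the 9 genes, and the 250 bases before the annotated start are printed 5′ to 3′ on the gene's strand, in build GRCr8. Capitals mark letters of a searched motif on either strand: the AP-1 site TGANTCA, its variant TGAGTAA, the TATA box TATAAA, the GC box GGGCGG and the CCAAT box CCAAT. Adamts1 lies at chr11:38427385-38427634, Loxl1 at chr8:67612225-67612474 and Timp1 at chrX:3771123-3771372, all on the minus strand.
Adamts1: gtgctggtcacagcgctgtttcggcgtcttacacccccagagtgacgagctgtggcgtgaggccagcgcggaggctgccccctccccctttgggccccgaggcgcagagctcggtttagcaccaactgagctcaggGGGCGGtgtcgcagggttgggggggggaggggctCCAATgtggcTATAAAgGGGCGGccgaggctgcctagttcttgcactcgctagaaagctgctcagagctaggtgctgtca
Loxl1: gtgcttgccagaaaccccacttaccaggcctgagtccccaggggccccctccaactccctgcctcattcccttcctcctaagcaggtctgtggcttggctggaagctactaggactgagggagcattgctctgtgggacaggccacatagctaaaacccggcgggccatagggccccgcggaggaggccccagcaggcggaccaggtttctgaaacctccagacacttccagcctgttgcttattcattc
Timp1: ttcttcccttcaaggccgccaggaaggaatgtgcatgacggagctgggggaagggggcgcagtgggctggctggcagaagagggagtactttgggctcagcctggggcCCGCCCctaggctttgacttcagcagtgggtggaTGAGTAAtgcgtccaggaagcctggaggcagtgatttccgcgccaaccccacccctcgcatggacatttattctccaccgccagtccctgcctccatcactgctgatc

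The Timp1 window held the letters TGAGTAA 108 to 102 bases before the start, a motif present in 2.381% of 33469 promoter windows of the same length, and 1 GC box, present in 30.467%. The Adamts1 window held a TATA box 70 to 65 bases before the start, present in 12.931% of windows, a CCAAT box 80 to 76 bases before it, present in 34.017%, and 2 GC boxes. The Loxl1 window held none of the 5 motifs, and TGANTCA, present in 6.34% of windows, was in none of the 5 windows. These motifs were chosen with the sequences in view, and a match of letters is a description, not a binding site.

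In severe arrays, Adamts1 and all 3 lysyl oxidases were at 0.136 to 0.289 of their mild 48 h level by group mean, Mmp14 was at 0.490 to 0.707 of it, Timp1 was higher at 8 and 15 h, and no change of Mmp2, Timp2 or Timp3 passed the test. At 8 h, limma passed 4 of the 9 genes as lower and 1 as higher, against 5.13% and 3.47% of all 21895 features, with a threshold of adjusted p under 0.05. At 15 h, 5 were lower and 1 higher, against 6.39% and 4.43%. At 24 h, 5 were lower and 0 higher, against 6.34% and 2.85%, and at 48 h, 5 were lower and 0 higher, against 7.76% and 3.44%. Centred on 81 proteasome and oxidative phosphorylation genes, the split of all features at 48 h was 1458 lower and 1004 higher, against 1698 and 754 as deposited, and the same 5 genes passed. The median log2 difference of the 9 genes was -0.49, -0.76, -1.01 and -0.99 at 8, 15, 24 and 48 h, while that of all features was 0.01, 0.00, 0.02 and 0.00. The 9 genes were named with earlier results of these data known, so these counts describe them and are no test of the list. By its labels this set holds no uninjured control, and mild 48 h differs from severe 8, 15 and 24 h in both injury and time. In these comparisons a fall or a rise means lower or higher than mild 48 h. Injury, time and culture cannot be told apart as its source.

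**Figure D1:**
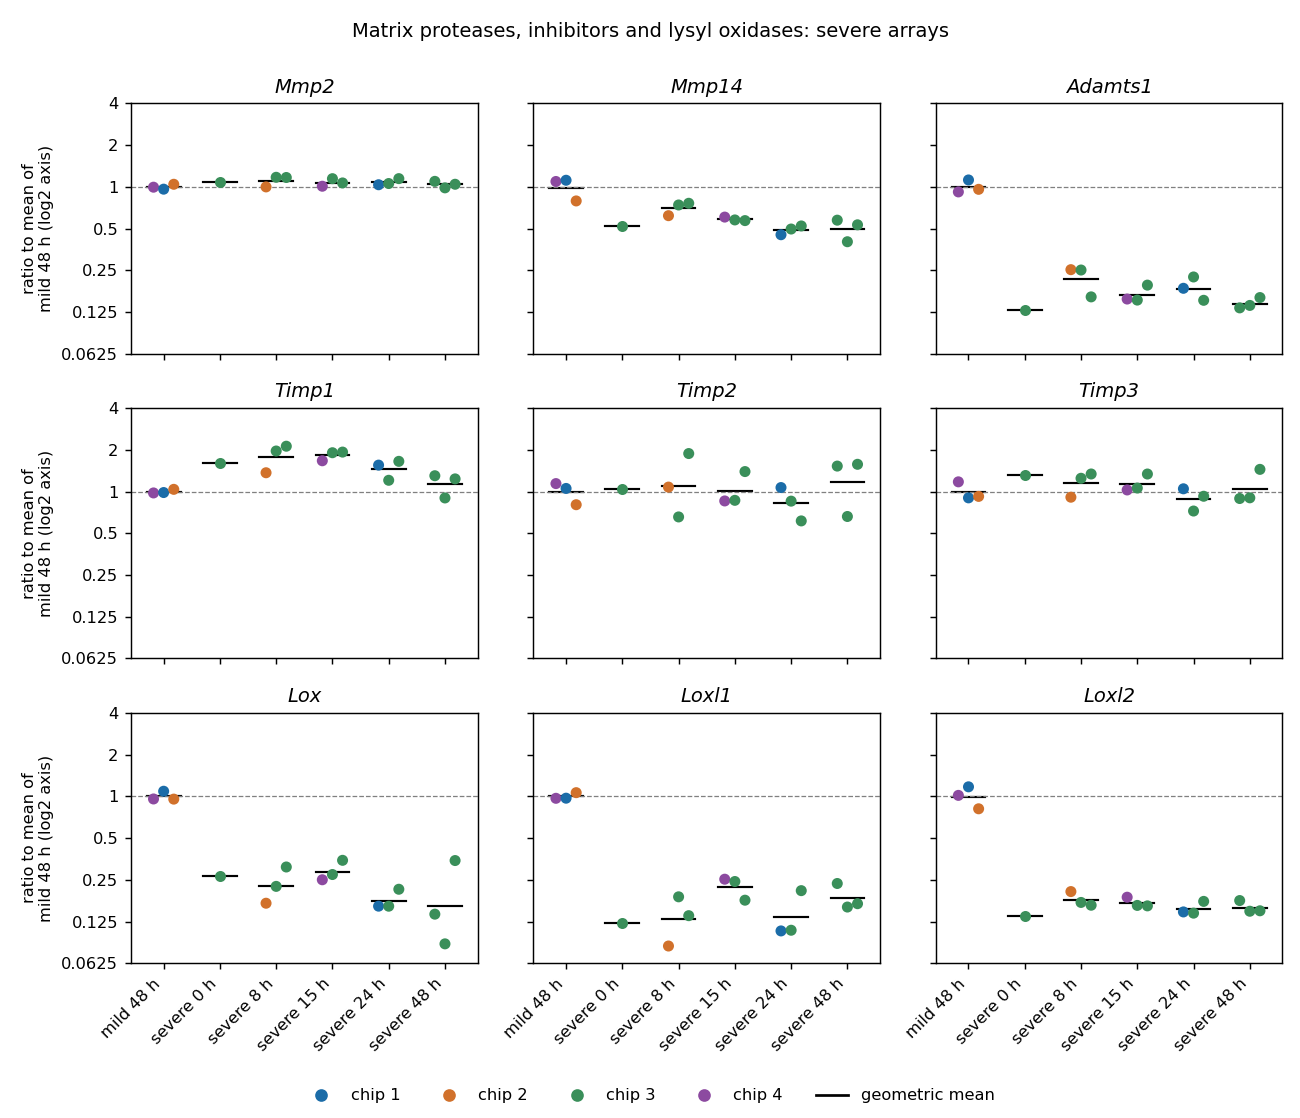
Ratio of each gene to the mean of the 3 mild 48 h arrays (log2 axis) on each of the 16 arrays, by group. Points are arrays coloured by chip, bars are geometric means, and the dashed line is a ratio of 1. Adamts1, Lox, Loxl1 and Loxl2 lie between 0.083 and 0.345 on every severe array, Mmp2 stays between 0.983 and 1.17, and Timp1 is highest at 8 and 15 h.

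Adamts1 is a secreted protease that cuts the proteoglycans versican and aggrecan. Its ratio was 0.919, 1.12 and 0.960 on mild 48 h arrays 1 to 3. On severe arrays it was 0.129 at 0 h, 0.253, 0.251 and 0.161 at 8 h, 0.155, 0.152 and 0.195 at 15 h, 0.185, 0.224 and 0.152 at 24 h, and 0.134, 0.139 and 0.159 at 48 h. Every severe array lay far below every mild 48 h array, and the highest severe value came from the 8 h group. The log2 difference from mild 48 h was -2.20 ± 0.18 (SE, n = 3 against 3) at 8 h, a 4.59-fold lower level (limma adjusted p = 8.34e-06). It was -2.79 ± 0.18 at 48 h, a 6.93-fold lower level (limma adjusted p = 1.08e-06), with -2.58 and -2.43 at 15 and 24 h between them.

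Lox, the founding lysyl oxidase, cross-links collagen and elastin. Its ratio was 0.957, 1.09 and 0.955 on the mild 48 h arrays and 0.266 on the severe 0 h array. It was 0.169, 0.224 and 0.309 at severe 8 h, 0.25, 0.273 and 0.345 at 15 h, 0.161, 0.161 and 0.214 at 24 h, and 0.141, 0.0862 and 0.344 at 48 h. No severe value reached a mild 48 h value, but replicates were wide at 48 h. The log2 difference of Lox was -2.14, -1.80, -2.49 and -2.63 at 8, 15, 24 and 48 h, each with an SE of 0.38 (limma adjusted p = 0.00368, 0.00908, 0.0012 and 0.000685). With the chip as a block the 15 h fall was -2.05, with a limma adjusted p of 0.0545.

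Loxl1, which acts on elastic fibres, had ratios of 0.968, 0.970 and 1.06 on the mild 48 h arrays and 0.122 on the severe 0 h array. Its ratio was 0.0832, 0.188 and 0.138 at severe 8 h, 0.252, 0.243 and 0.178 at 15 h, 0.107, 0.108 and 0.209 at 24 h, and 0.235, 0.159 and 0.168 at 48 h. The severe groups overlapped each other, and none of their arrays came near mild 48 h. Its log2 difference of -2.95 ± 0.30 at 8 h, a 7.73-fold lower level, was the largest fall of the 9 genes in these 4 comparisons (limma adjusted p = 5.35e-05). The fall was -2.17 ± 0.30 at 15 h, -2.90 ± 0.30 at 24 h and -2.44 ± 0.30 at 48 h (limma adjusted p = 0.000577, 5.8e-05 and 0.000213).

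Loxl2, which cross-links collagen IV in basement membranes, had ratios of 1.02, 1.17 and 0.813 on the mild 48 h arrays and 0.137 on the severe 0 h array. Its 12 severe arrays from 8 to 48 h were the tightest of the 4 falling genes, with a lowest ratio of 0.144, a median of 0.164 and a highest of 0.206. Every group mean from 8 to 48 h lay within 0.155 and 0.180. The log2 difference of Loxl2 was -2.46, -2.54, -2.68 and -2.65, each with an SE of 0.14, at 8, 15, 24 and 48 h (limma adjusted p = 2.23e-07, 1.86e-07, 9.43e-08 and 1.05e-07). Under quantile normalization the differences were -2.17 to -2.08, each with an SE of 0.60. They missed the threshold at all 4 times, with limma adjusted p between 0.0505 and 0.0698. This scaling gives every array of the set the same distribution. As deposited, the SD of all log2 ratios was 0.07 to 0.09 on the mild 48 h arrays, which form the divisor, and 0.45 to 0.60 on the severe arrays. The part of this in the larger SE was not tested.

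Mmp14 is a membrane-bound metalloproteinase that cuts collagen I and activates the Mmp2 precursor, with Timp2 as its partner on the cell surface. Its ratio was 1.09, 1.12 and 0.791 on the mild 48 h arrays. On severe arrays it was 0.523 at 0 h, 0.620, 0.740 and 0.761 at 8 h, 0.605, 0.577 and 0.571 at 15 h, 0.451, 0.496 and 0.522 at 24 h, and 0.575, 0.402 and 0.532 at 48 h. The 8 h arrays lay just under the lowest mild 48 h array, and the 24 and 48 h arrays were further down. The difference at 8 h, -0.49 ± 0.15, missed the threshold (limma adjusted p = 0.0678), and Mmp14 fell at 15, 24 and 48 h, with differences of -0.76, -1.01 and -0.99, each with an SE of 0.15 (limma adjusted p = 0.00563, 0.000864 and 0.000826). Under quantile normalization these falls were -0.46, -0.68 and -0.52, with limma adjusted p of 0.912, 0.761 and 0.89. Their SE was then 0.54, larger than as deposited, as it was for Loxl2.

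Mmp2, a secreted gelatinase that Mmp14 activates, had ratios between 0.962 and 1.04 on the mild 48 h arrays and between 0.983 and 1.17 on the 12 severe arrays from 8 to 48 h, with a median of 1.06. The severe groups overlapped mild 48 h at every time. Its log2 difference was 0.15, 0.10, 0.11 and 0.06 at 8, 15, 24 and 48 h, each with an SE of 0.08, and the 95% confidence interval at 48 h ran from -0.11 to 0.23. That interval leaves out any fall of the size seen for Mmp14, its activator, at the same time.

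Timp1, a secreted inhibitor of many metalloproteinases that is induced by injury and cytokines in many tissues, moved the other way. Its ratio was 0.978, 0.984 and 1.04 on the mild 48 h arrays. On severe arrays it was 1.61 at 0 h, 1.37, 1.96 and 2.12 at 8 h, 1.67, 1.91 and 1.93 at 15 h, 1.55, 1.21 and 1.65 at 24 h, and 1.30, 0.900 and 1.23 at 48 h. All arrays at 8, 15 and 24 h lay above all mild 48 h arrays, as did 15.2%, 16.2% and 15.6% of all features, while 48 h overlapped them. Timp1 rose by 0.84 ± 0.18 at 8 h (1.79-fold, limma adjusted p = 0.00981) and by 0.87 ± 0.18 at 15 h (1.83-fold, limma adjusted p = 0.00661). The differences of 0.54 ± 0.18 at 24 h and 0.18 ± 0.18 at 48 h did not pass (limma adjusted p = 0.0834 and 0.649). With the chip as a block the 8 and 15 h differences were both 0.73, with limma adjusted p of 0.115 and 0.1, and without severe 8 h replicate 3 the 8 h difference was 0.71 with an adjusted p of 0.0516.

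Timp2, an inhibitor that also helps Mmp14 to activate the Mmp2 precursor, had the largest SE of the 9 genes in these 4 comparisons. Its ratio was 1.14, 1.05 and 0.804 on the mild 48 h arrays, 1.05 at severe 0 h, 1.08, 0.656 and 1.88 at 8 h, and 1.53, 0.661 and 1.57 at 48 h. Severe arrays lay on both sides of mild 48 h within a single time. Its log2 difference ranged from -0.26 at 24 h to 0.24 at 48 h, each with an SE of 0.40, and the smallest limma adjusted p was 0.81. The 95% confidence interval at 48 h, -0.64 to 1.12, allows a change of either direction.

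Timp3, which binds to the matrix and also inhibits ADAM and ADAMTS proteases, had ratios of 1.18, 0.901 and 0.923 on the mild 48 h arrays and 1.33 at severe 0 h. Over the 12 severe arrays from 8 to 48 h its lowest ratio was 0.724, the median 1.04 and the highest 1.45. The groups overlapped at every time. Its log2 differences were 0.21, 0.19, -0.16 and 0.08 at 8, 15, 24 and 48 h, each with an SE of 0.22, and did not pass (smallest limma adjusted p = 0.718).

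**Figure D2:**
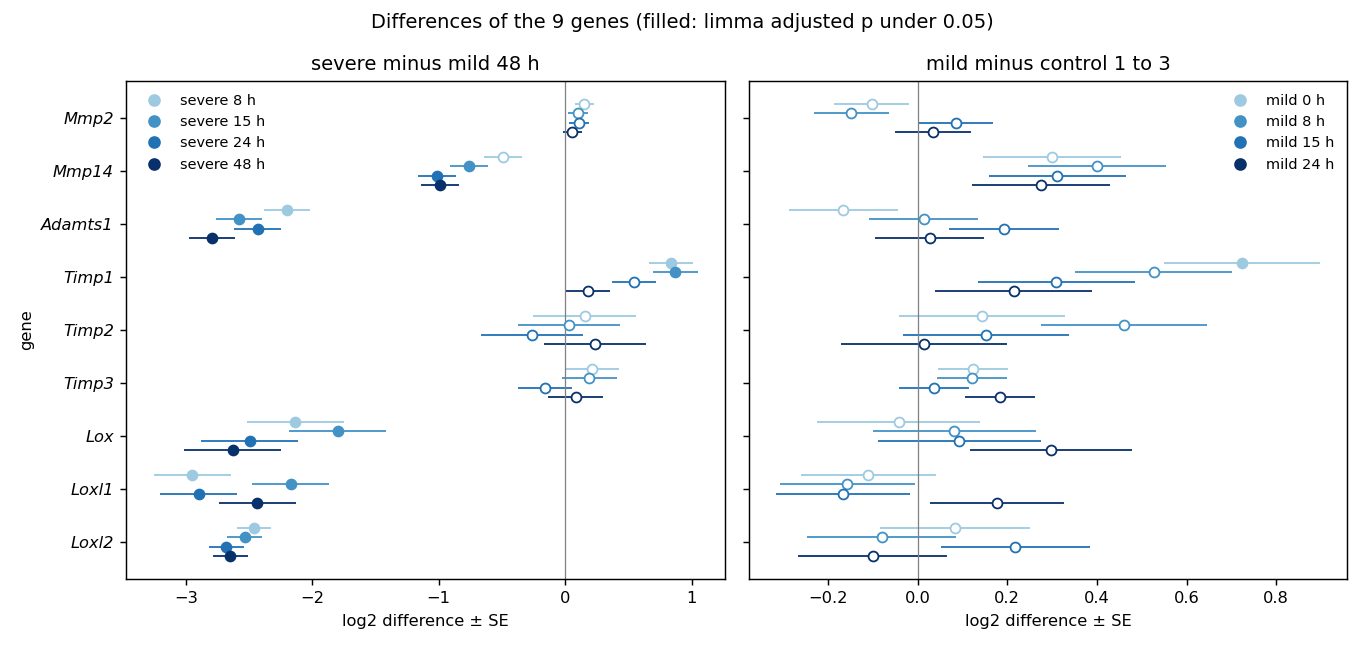
Log2 difference with its SE for each of the 9 genes, severe minus mild 48 h at 8, 15, 24 and 48 h (left) and mild minus control 1 to 3 at 0, 8, 15 and 24 h (right, on a narrower axis). Filled points passed the limma threshold. On the left the 3 lysyl oxidases and Adamts1 lie between -2.95 and -1.80 at all times, and on the right the single filled point is Timp1 at 0 h, at 0.72.

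Each severe array of 8, 15 and 24 h that shared a chip with a mild 48 h array was also set against it, 1 array against 1. On these chips Adamts1 differed by -1.93, -2.57 and -2.60, Lox by -2.50, -1.94 and -2.75, Loxl1 by -3.68, -1.94 and -3.18, and Loxl2 by -1.98, -2.44 and -2.998 at 8, 15 and 24 h. Mmp14 differed by -0.35, -0.85 and -1.31 and Timp1 by 0.40, 0.77 and 0.66 on the same chips. All of these had the direction of the 3-array comparison, which was fixed beforehand, because the severe arrays of these genes did not overlap mild 48 h. Of the genes that did overlap, Mmp2 differed by -0.06, 0.02 and 0.11, Timp2 by 0.42, -0.42 and 0.02 and Timp3 by -0.02, -0.19 and 0.22. Their direction was turned for Mmp2 at 8 h, for Timp2 at 15 and 24 h and for Timp3 at 8, 15 and 24 h. No severe 48 h array shared a chip with a mild 48 h array, so at 48 h chip and group cannot be told apart except through other groups. Leaving out severe 48 h replicate 2 left 5 genes past the threshold.

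Among the 4 severe groups, neighbours in the order of mean ratios mostly overlapped, but some groups further apart did not. For Adamts1, Lox, Loxl1 and Loxl2, every group overlapped its neighbour in the order of mean ratios, and a gap separated all 4 severe groups from mild 48 h. With Mmp14, 5 of the 9 genes lay wholly below mild 48 h at each time. Of all features, 13.5%, 16.2%, 15.7% and 14.8% did so at 8, 15, 24 and 48 h. Mmp14 ran in the order 24, 48, 15 and 8 h from lowest to highest, and the 8 h arrays did not overlap the 15 h arrays. Severe 48 h minus severe 8 h gave 0 of 9 genes and 0% of all features past the limma threshold, with 3 of the 9 genes and 1716 features at an unadjusted p under 0.05. The 3 genes were Mmp14 at -0.50 ± 0.15, Adamts1 at -0.59 ± 0.18 and Timp1 at -0.66 ± 0.18 (limma adjusted p = 0.552, 0.57 and 0.527). With all 34 arrays in 1 fit, 17 features passed as higher and 105 as lower, and 0 of the 9 genes. Centred on the 81 proteasome and oxidative phosphorylation genes, which moved the median of all features by 0.26, the differences were -0.25, -0.34 and -0.40, and with quantile normalization they were -0.20, -0.35 and -0.53. On the 1 chip that held both groups, with 3 arrays of 48 h and 2 of 8 h, these differences were -0.59, -0.48 and -0.85.

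The single severe 0 h array had the pattern of the later times, with ratios of 0.129 for Adamts1, 0.266 for Lox, 0.122 for Loxl1, 0.137 for Loxl2, 0.523 for Mmp14 and 1.61 for Timp1. Each lay within the range of the 12 later severe arrays, except that Adamts1 and Loxl2 were just below it, at 0.134 and 0.144 on the lowest later arrays. With 1 array, this has no replicate check, and a difference present before injury cannot be told apart from a change after it.

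After mild injury, from 0 to 24 h, no difference of the lysyl oxidases, Adamts1, the metalloproteinases, Timp2 or Timp3 from control 1 to 3 passed the test, and Timp1 was higher at 0 h. Mild 0 h minus control 1 to 3 gave 1 of the 9 genes as higher, against 4.61% of all features, and 0 as lower. Of all features, 1010 passed as higher and 36 as lower. That split was 52 and 11705 when centred on the 81 proteasome and oxidative phosphorylation genes and 23 and 11 with quantile normalization, and Timp1 passed in neither. For mild 8, 15 and 24 h, 0 of the 9 genes passed, against 0.119%, 0% and 0% of features in either direction, with 3, 0 and 1 of the 9 genes and 2395, 1155 and 1913 features at an unadjusted p under 0.05 in limma (Mmp14, Timp1 and Timp2 at 8 h, and Timp3 at 24 h). Mild 24 h minus mild 0 h also gave 0 of 9, against 0.311% of features, with 1 gene, Timp1, and 2374 features at an unadjusted p under 0.05 in limma.

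Timp1 had ratios of 0.968, 0.941 and 1.09 on control arrays 1 to 3 and 1.04, 1.31 and 1.23 on control arrays 4 to 6. It was 1.64, 1.79 and 1.52 at mild 0 h, 1.90, 0.946 and 1.65 at 8 h, 1.15, 1.14 and 1.44 at 15 h, and 1.10, 1.26 and 1.12 at 24 h. All mild 0 h arrays lay above all 6 controls, while 1 of the 3 arrays at 8 h lay among control 1 to 3. Of all features, 15.5% lay wholly above control 1 to 3 at mild 0 h, and the share above all 6 controls is not given here. The rise at 0 h was 0.72 ± 0.17, or 1.65-fold (limma adjusted p = 0.0299). The difference at 8 h was 0.53 ± 0.17 (limma adjusted p = 0.246), and without mild 8 h replicate 2, the low array, it was 0.83 (adjusted p = 0.0137). The 0 h call did not hold against all 6 controls (0.60, limma adjusted p = 0.961), nor without control replicate 1 or 2 or mild 0 h replicate 1 or 2 (0.66 to 0.73, adjusted p between 0.0681 and 0.195). With the chip as a block it was 0.72 (limma adjusted p = 0.0627). On chips 1 and 2, which held both groups, the 0 h difference was 0.89 and 0.59. Beside this rise, 4 of 14 neuron markers and 1 of 16 fibroblast markers passed as higher at mild 0 h and 0 as lower, and the median log2 ratio of 10 microglia markers was 0.08 to 0.70 over the 3 arrays with 0 markers past the threshold. Their part in the Timp1 value was not tested.

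**Figure D3:**
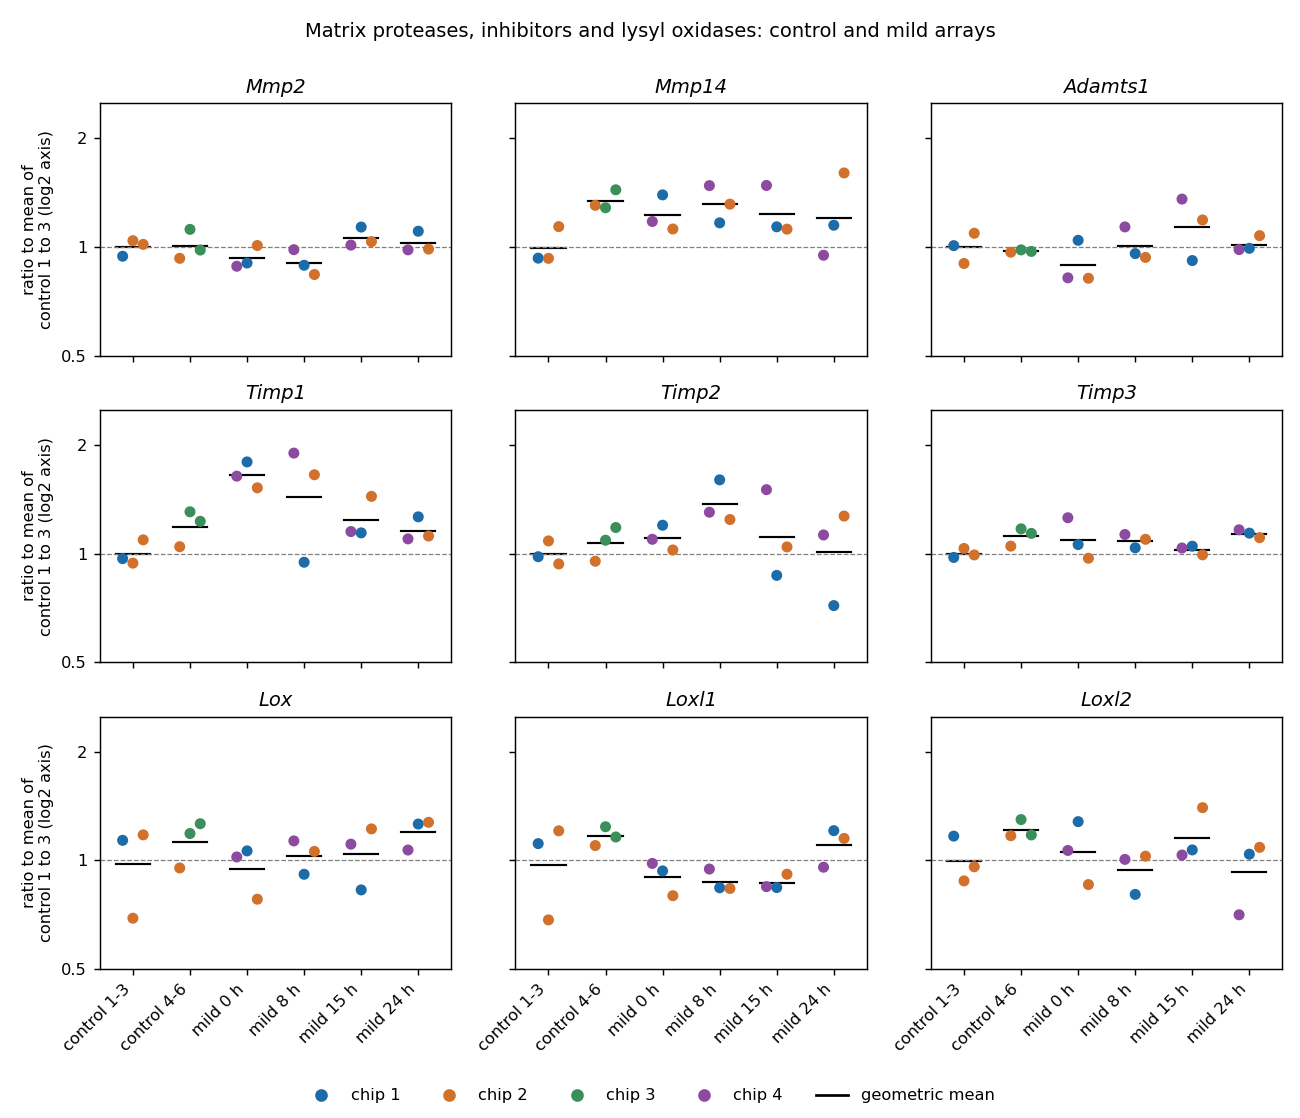
Ratio of each gene to the mean of control 1 to 3 (log2 axis) on the 18 control and mild 0 to 24 h arrays, by group. Points are arrays coloured by chip, bars are geometric means, and the dashed line is a ratio of 1. Timp1 at mild 0 h, between 1.52 and 1.79, lies above all 6 control arrays, and the other 8 genes overlap the controls at that time.

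Over the same 18 arrays, Adamts1 ranged from 0.819 to 1.36 with a median of 0.983, Lox from 0.690 to 1.27, Loxl1 from 0.683 to 1.24 and Loxl2 from 0.705 to 1.40. Mmp2 ranged from 0.839 to 1.14 and Timp3 from 0.971 to 1.26, the narrowest spans. Mmp14 was 0.931, 0.930 and 1.14 on control 1 to 3 and 1.30, 1.28 and 1.44 on control 4 to 6, with no overlap. Loxl2 and Timp3 were also higher on every control 4 to 6 array than on every control 1 to 3 array, as were 24.5% of all features. The median log2 ratio of 10 microglia markers was 0.79 to 0.98 on control 4 to 6 and -0.16 to 0.19 on control 1 to 3, with 5 of the 10 past the limma threshold as higher, and their part in these values was not tested. Control 4 to 6 minus control 1 to 3 nevertheless gave 0 of the 9 genes past the limma threshold, against 11.8% of features in either direction, with 1 gene and 5654 features at an unadjusted p under 0.05. All features split into 2519 higher and 68 lower, into 76 and 14167 when centred on those 81 genes, and into 8 and 10 with quantile normalization. The gene at an unadjusted p under 0.05 was Mmp14, at 0.43 ± 0.15 (adjusted p = 0.0758). Its mild groups had mean ratios of 1.23 to 1.32, at the level of control 4 to 6 or below it, and its differences from control 1 to 3 were 0.30, 0.40, 0.31 and 0.28 at 0, 8, 15 and 24 h, all with an SE of 0.15 and none past the threshold. Timp2 reached 1.30, 1.60 and 1.24 at mild 8 h, above all 6 controls, with a difference of 0.46 ± 0.19 that did not pass (limma adjusted p = 0.35). Of all features, 12.8% lay wholly above control 1 to 3 at that time, and the share above all 6 controls is not given here.

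Whether the change from 8 to 24 h differed between severe and mild injury was tested as an interaction, in which each set's divisor cancels. If the second array order were right, the mild arrays used here would be 15 and 48 h, and the spans of time would not match. 0 of the 9 genes and 0% of all features passed in limma, with 0 genes and 904 features at an unadjusted p under 0.05. The difference of changes was -0.57 ± 0.44 for Lox and -0.40 ± 0.23 for Mmp14. For Timp1 it was 0.02 ± 0.27, with a 95% confidence interval of -0.54 to 0.57.

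Other genes of matrix turnover were counted in lists that hold none of the 9 genes, at severe 48 h against mild 48 h. Of 18 other matrix metalloproteinases, 1 fell and 0 rose (median -0.01), and that one was Mmp23 at -1.13 ± 0.11. Of 23 other ADAM and ADAMTS proteases, 4 fell and 0 rose (median -0.04), among them Adamts2, which trims the end of procollagen, at -1.95 ± 0.31, Adamts5, an aggrecanase, at -1.03 ± 0.16 and Adam23 at -0.56 ± 0.08. Of 13 other protease inhibitors, 3 rose and 2 fell (median -0.08). A2m, a broad protease trap in plasma, rose by 1.92 ± 0.30, Serpinf1, a secreted serpin, differed by -2.11 ± 0.27, and Reck, a membrane-anchored metalloproteinase inhibitor, by -1.87 ± 0.31. Of 18 genes of plasminogen activation, procollagen processing and cathepsins, 2 rose and 4 fell (median 0.01), with Pcolce, which speeds procollagen trimming, at -4.19 ± 0.26, Ctsk, a collagen-cutting cathepsin, at -2.45 ± 0.61 and Fap, a serine protease of activated fibroblasts, at -2.31 ± 0.39. limma's adjusted p for each gene named here was under the threshold, against 7.76% of all features lower and 3.44% higher.

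The fibre-building genes had a lower median. Of 25 other lysyl oxidases, collagen hydroxylases and elastic fibre genes, 16 fell and 0 rose, with a median of -1.19. Ltbp1, a fibrillin-binding protein that holds latent TGF-beta, differed by -3.42 ± 0.18, Mfap2, a microfibril protein, by -2.52 ± 0.27 and Fbn1, the main microfibril protein, by -2.20 ± 0.11. Of 24 collagen chains, 18 fell and 0 rose, with a median of -2.01, led by Col14a1 at -4.88 ± 0.34, Col8a1 at -4.58 ± 0.60 and Col1a1 at -4.30 ± 0.40. Of 12 lectican and perineuronal net genes, the matrix of neurons and glia, 1 rose and 3 fell, with a median of -0.01: Tnr, tenascin-R, rose by 1.64 ± 0.36, while Vcan, versican, and Has2, a hyaluronan synthase, differed by -1.07 ± 0.30 and -0.72 ± 0.18. At 8 h the lysyl oxidase and elastic fibre list had 17 of 25 lower and the collagens 17 of 24.

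**Figure D4:**
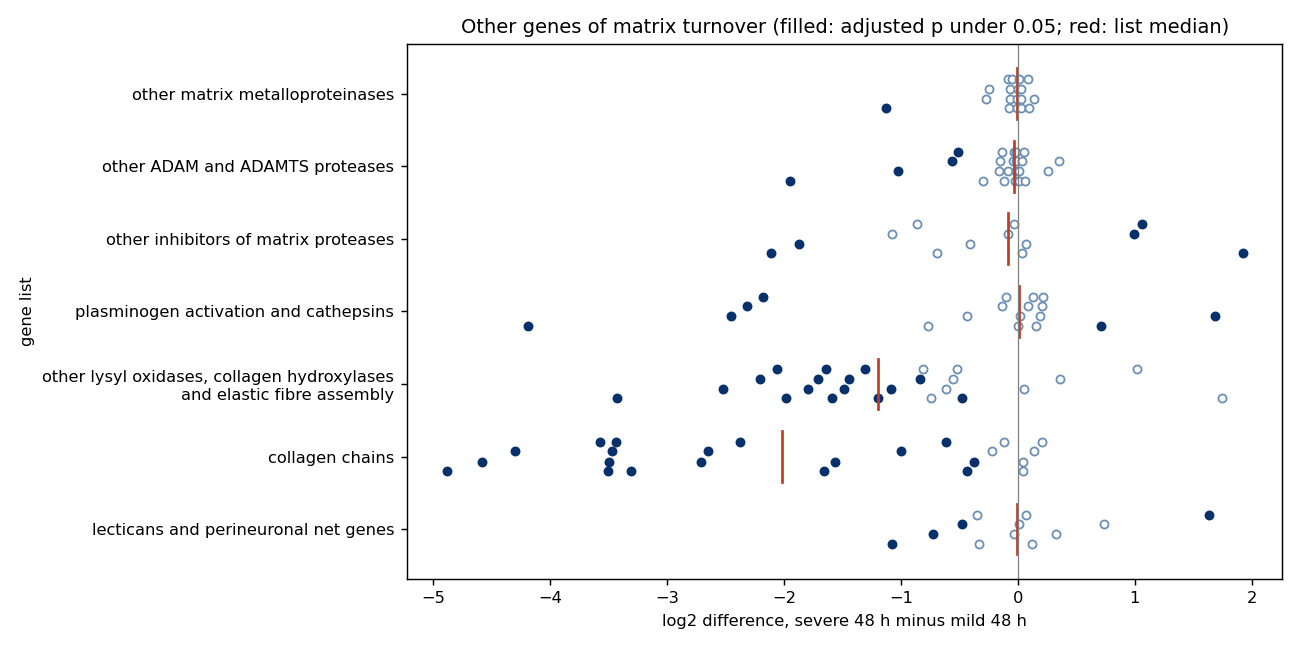
Log2 difference, severe 48 h minus mild 48 h, of each measured gene in 7 lists of matrix turnover genes other than the 9 genes followed here. Filled points passed the limma threshold and red lines are list medians, which are -1.19 and -2.01 for the elastic fibre and collagen lists and between -0.08 and 0.01 for the other 5.

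Markers of other cell types moved in the same arrays. Of 16 fibroblast and meningeal markers, 9, 9, 11 and 11 fell and 0 rose at severe 8, 15, 24 and 48 h, among them Lum at -4.77 ± 0.89 and Alx1 at -4.36 ± 0.37 at 48 h. Their median log2 ratio was -2.74 to -1.54 over the 13 severe arrays and -0.10 to 0.09 over the mild 48 h arrays, a summed level not being possible from ratios. On the same 13 arrays the log2 ratios of Adamts1, Lox, Loxl1 and Loxl2 lay between -3.59 and -1.53. The marker list shares Col1a1, Col1a2 and Col3a1 with the collagen list and Fap with the plasminogen list. In the 18 arrays divided by control 1 to 3 its median lay between -0.32 and 0.42. The part of these markers in the falls was not tested, and in bulk RNA fewer cells of a type and less RNA per cell cannot be told apart.

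Of 9 astrocyte markers, 7 rose at severe 48 h, with a median of 0.66 to 1.53 over the 13 severe arrays, and 6 of 7 ependymal markers rose, with a median of 1.73 to 3.85. Of 12 oligodendrocyte markers, 6 rose, with a median of 0.29 to 1.95. Of 14 neuron markers, 2 fell at severe 48 h, Tubb3 and Gap43, and the median varied widely between severe arrays, from -2.18 to 0.42. The median of 10 microglia markers lay between -1.32 and 0.42, that of 8 endothelial markers between -0.18 and 0.01 and that of 9 mural markers between -0.18 and 0.05. Of these, 2 endothelial markers and 1 mural marker fell and 0 rose at each of 8, 15, 24 and 48 h. At 48 h they were Emcn at -0.55 ± 0.08, Cldn5 at -0.36 ± 0.08 and Actg2, a smooth muscle actin, at -4.70 ± 0.37 (limma adjusted p = 0.000683, 0.00851 and 4.03e-06). The labelled cell type, neuron, was not checked by level here, because the ratios do not show whether a marker was present and the signal columns were not used for levels.

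**Figure D5:**
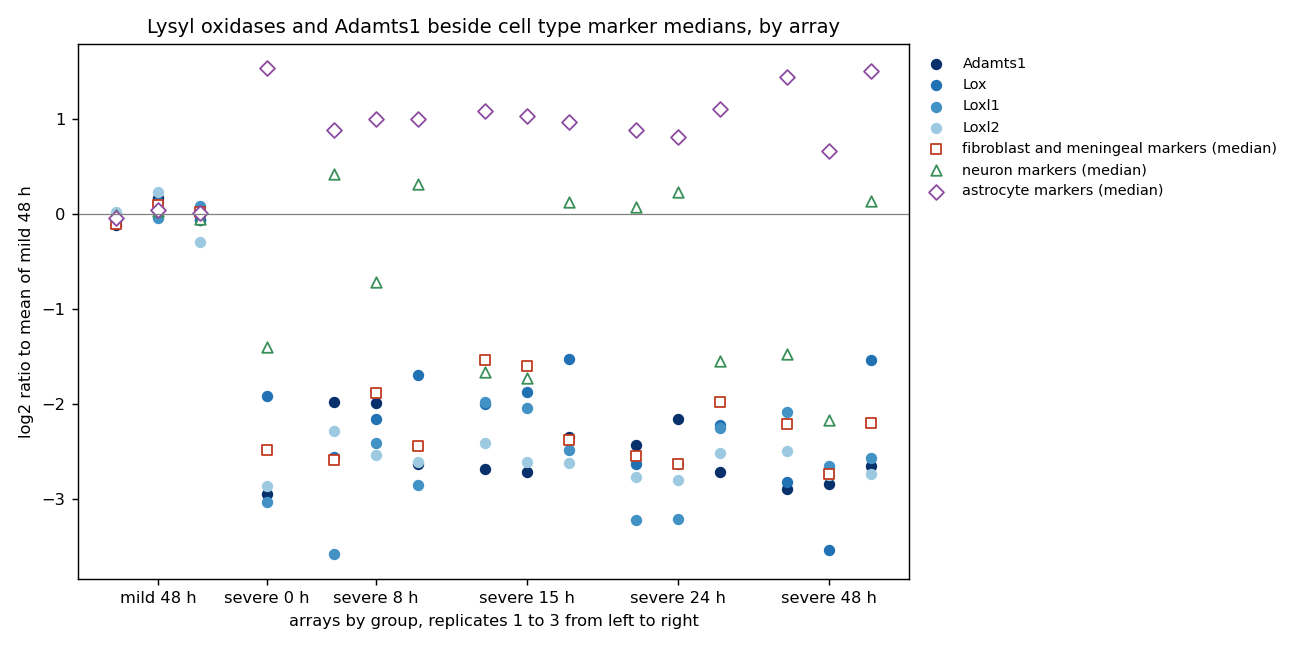
Log2 ratio to the mean of mild 48 h on each of the 16 arrays for Adamts1, Lox, Loxl1 and Loxl2 (filled), beside the median of fibroblast, neuron and astrocyte markers (open). On the severe arrays fibroblast medians lie between -2.74 and -1.54, the 4 genes lie between -3.59 and -1.53, and neuron medians vary from -2.18 to 0.42.

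Among all other features, those whose log2 ratios followed each gene most closely over the 16 arrays of the severe set are given with Pearson's r, as a description. These arrays share a divisor and fall into a severe and a mild block, so a gene with a large fall correlates with many others. Adamts1 was closest to Chac1 (r = 0.99), Emb and Plvap. Lox was closest to P3h1, which hydroxylates collagen prolines (r = 0.98), Lman1 and Htra1, Loxl1 to Cd248, a marker of stromal and perivascular cells (r = 0.99), Enpp1 and Nfatc4, and Loxl2 to Klf2 (r = 0.99) and Clec11a. Mmp14 was closest to Polr1f (r = 0.94), Timp1 to LOC362113 (r = 0.91) and Mthfd1 (r = 0.89), Timp2 to Lrrc14 (r = 0.91), Timp3 to Ace (r = 0.87) and Mmp2 to Ermp1 (r = 0.86). Among the 9 genes themselves over the same arrays, r was highest between Adamts1 and Loxl2, at 0.96, and between Loxl1 and Loxl2, at 0.92. It was 0.77 between Mmp2 and Timp1 and 0.82 between Mmp14 and Adamts1. Within the 12 severe arrays from 8 to 48 h, these values were, in the same order, 0.17, 0.13, 0.71 and 0.32. The highest value within those 12 arrays was 0.75, between Lox and Timp3, against 0.22 over all 16. Adamts1 and Loxl1 had r = -0.62 within those 12 arrays, against 0.83 over all 16, and Mmp14 and Timp1 had r = 0.74, against -0.19 over all 16.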

How the data were processed

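The deposited values are linear ratios for 22226 probes. Their divisors were found by search: among 5984 triples of arrays, 2 had a mean of 1 for every probe to within 1e-04. Background correction and software are not given in the sources used here. The smallest deposited ratio, 0.01, occurred 3 times and may be a floor. A deposited table of signals holds 34 columns whose names match no sample's labels, and none was used for a comparison of levels. By value, all 34 arrays were matched to a column to within 0.001 log2, and 18 of them stood at another place in that table. Its description column named probes where the platform annotation did not.

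Probes of a gene were averaged on the log2 scale, which gave 21895 features. limma 3.58.1 in R 4.3.3 (lmFit, eBayes, two-sided, 1 mean per group) was fitted within each divisor set, with control 1 to 3 and control 4 to 6 as separate groups and Benjamini-Hochberg adjustment over all features. The number of arrays limits the precision. The procedure was tested on simulated data, and the outcome is not given here and bears on no result above. Alternatives were other scalings, the chip or replicate number as a block, other arrays in the fit, a pseudocount of 0.1 and leaving out each array.

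The 9 genes, the gene lists and the comparisons were chosen with earlier results of these data known. Named genes were all 9 in every group, of each other list up to 3 largest differences past the threshold at severe 48 h and up to 2 at mild 24 h (0 passed there), and for each of the 9 the features of highest Pearson r. In no comparison did same-numbered arrays all deviate together (lowest correlation -0.45 to -0.04), so the replicate numbers were not taken to pair samples. Promoters came from RefSeq. Figures were drawn with matplotlib 3.10.9.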

Additional observations from a re-analysis of the deposited data

Results flagged for a closer look

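The lowest of the 6 control arrays for Loxl1 was control replicate 2, at a log2 ratio of -0.55, and its gap to the next array was 0.80 of the range of the 6 controls, above Dixon's 95% critical value. It was the 1 outlying value among the 9 genes tested in that group, and chance flags about 1 in 20 groups. On control replicate 2 the median log2 ratio of 81 proteasome and oxidative phosphorylation genes was -0.21, against 0.04 to 0.39 on the other controls. That of 16 fibroblast markers was -0.32, against 0.10 to 0.41, while those of endothelial and ependymal markers were 0.06 and 0.01. Their part in the Loxl1 value was not tested. The array is part of the divisor of its own set. The other groups have 3 arrays or fewer and were not tested for outliers.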

How the results depend on the processing

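Of 1800 values of single genes under the alternatives, 332 passed in both fits, all with their direction kept, 21 lost their call, 14 gained one and 1 gained a call with the direction turned; the cause was not tested. The other 1432 passed in neither fit, and 109 of them had the other sign, 28 of these when centred on 81 proteasome and oxidative phosphorylation genes. With quantile normalization, 3 genes passed at severe 24 h and 3 at severe 48 h, in place of 5. The same scaling lost the calls of Loxl2 at severe 8 h and of Mmp14 and Loxl2 at 15 h. With the chip as a block, the calls of Timp1 at severe 8 h and of Timp1 and Lox at 15 h were lost. Leaving out 1 array gave 4 to 6 genes at severe 8 h, 5 to 6 at 24 h, 0 to 1 for mild 0 h, 0 to 1 for mild 8 h and 0 to 1 for control 4 to 6 against control 1 to 3, and no change elsewhere. The features past the threshold, against which these counts are read, ranged without leaving out arrays from 904 to 3891 at severe 48 h (2452 as reported), from 812 to 3104 at 8 h (1882), from 965 to 3983 at 15 h (2368), from 907 to 3320 at 24 h (2011), from 0 to 11757 at mild 0 h (1046), from 0 to 169 at mild 8 h (26), from 9 to 200 for mild 24 h against 0 h (68) from 0 to 122 for severe 48 h against 8 h (0) and from 6 to 14243 at control 4 to 6 (2587). Centring on those 81 genes moved the median of all features by -0.17 to 0.09 for severe against mild 48 h, -0.34 at mild 0 h, -0.15 at mild 8 h 0.26 for severe 48 h against 8 h and -0.39 at control 4 to 6. It passed 4 genes as lower at mild 0 h (Mmp2, Adamts1, Lox and Loxl1) and 2 at control 4 to 6, Adamts1 and Mmp2, where Mmp2 reversed to -0.38. At mild 0 h, 0 genes passed with quantile normalization, the chip as a block, the replicate block, all 34 arrays fitted or all 6 controls as reference. With only the compared arrays, 1 gene passed for control 4 to 6 (Mmp14) and 1 for mild 24 h against 0 h (Timp1). The replicate block moved no other count of passing genes by over 1.5 times. The 3 arrays per group limit each value.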
